A study of Mus musculus with 10 samples.

Results

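Promoters that read as unmethylated in mouse prospermatogonia, the germ cells of the fetal testis, were examined for small gains of DNA methylation after gestational arsenic exposure. A promoter region was an autosomal run of 5 or more CpGs in which neighbours lay no more than 100 b from each other. It had to overlap a window around a transcription start of GENCODE M21 that reached 1 kb upstream and 100 b downstream. Regions were chosen by their mean methylation level over the 10 samples, which had to be at most 2%. This left 9861 of 14493 autosomal promoter regions (68.0%), out of 67791 regions of any kind on chromosomes 1 to 19, X and Y. They held 213674 cytosines of 162649 CpGs and had the nearest start of a protein-coding gene in 8387 cases (85.1%). A region had a median of 14 CpGs and a median length of 158 b.

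Methylation was measured by reduced representation bisulfite sequencing (RRBS). DNA is cut with a restriction enzyme, as a rule MspI, whose site is CCGG, and the DNA is treated with bisulfite. Unmethylated cytosines then appear as T in the reads, whereas methylated ones appear as C. The 5 control pools came from fetuses of C3H/HeN dams given tap water, and the 5 arsenic pools from fetuses of C3H/HeN dams given sodium arsenite in tap water from mid to late gestation. In every pool the germ cells of many male fetuses of several dams were combined after magnetic separation with an antibody against Thy1.2, so the pool is the replicate, and cells other than germ cells that carry this antigen would be included. According to the methods, a further arsenic pool was left out by the authors for low depth.

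CpG-rich promoters of mammals are as a rule free of DNA methylation in all tissues, germ cells included, because transcription and methylated histone H3 lysine 4 keep the de novo methyltransferases away. In fetal male germ cells almost all methylation is erased, and prospermatogonia then regain it over most of the genome while CpG islands stay bare. A level near zero also holds the cytosines that bisulfite failed to convert. Mitochondrial DNA, which is taken to carry little or no CpG methylation, was therefore read as the background in the same libraries.

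The level of a region was its methylated calls divided by all its calls, in percent. A call is a cytosine in a read, so that 1 read adds several calls to a CpG-dense region. The median number of calls per promoter ranged from 473 to 663 in the control pools and from 549 to 1014 in the arsenic pools. Calls on these promoters and elsewhere summed to 44.5 to 60.8 M calls (M, 1e6) per control pool and 56.8 to 67.0 M per arsenic pool, so the arsenic pools were on the whole the deeper ones. At the overall median of 633 calls, 6 methylated calls gave a level of 0.948% with a 95% Wilson interval of 0.435 to 2.05%. At the 5th percentile of 145 calls, a count of 0 still allowed up to 2.58%. These intervals cover counting error only and are too narrow, since calls were not independent. Outside CCGG a methylated count of 2 at a cytosine was 2.92 times as frequent as a count of 1 (118070 against 40486 values). The spread of a promoter between pools of one group was a median of 3.37 times the binomial variance.

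The promoters of germ cell genes do not all belong to this set. The regions of Ddx4, a germ cell RNA helicase, and of Mael, a piRNA pathway gene, were methylated at 65.7% ± 6.43 (SD, n = 5) and 64.8% ± 4.09 in the control pools. Dazl, which codes for a germ cell RNA-binding protein, had one region in the set at 1.91% ± 1.30 beside another at 52.8% ± 3.55. Thy1 was at 69.1% ± 6.47. Sox9 and Wt1, which mark Sertoli cells and other somatic cells of the testis, had regions in the set, at 1.12 and 1.42% for Sox9 and 1.99% for Wt1 in the control pools. In the arsenic pools Ddx4 was at 64.3% ± 9.80, Mael at 64.8% ± 15.7 and Thy1 at 61.4% ± 12.9. There the Dazl regions were at 1.58% ± 0.646 and 51.1% ± 12.5, those of Sox9 at 0.756 and 0.292% and that of Wt1 at 0.595%. No region covered Pou5f1, Amh, Hsd3b1 or Cyp17a1.

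Sequences are shown first because the low levels followed the restriction site. The regions at Cdk5r1, which codes for an activator of the kinase Cdk5, and Zfr, which codes for an RNA-binding zinc finger protein, were those with the most calls among promoters with 2 CCGG sites of the table that lie outside annotated exons of protein-coding lead genes. All stretches are the plus strand of GRCm38, 5′ to 3′, with CCGG in capitals.
Cdk5r1, chr11:80476775-80476929: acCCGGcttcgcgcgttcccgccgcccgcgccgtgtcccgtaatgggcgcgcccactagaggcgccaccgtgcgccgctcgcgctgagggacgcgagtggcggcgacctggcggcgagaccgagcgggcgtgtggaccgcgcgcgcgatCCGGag
Zfr, chr15:12117503-12117658: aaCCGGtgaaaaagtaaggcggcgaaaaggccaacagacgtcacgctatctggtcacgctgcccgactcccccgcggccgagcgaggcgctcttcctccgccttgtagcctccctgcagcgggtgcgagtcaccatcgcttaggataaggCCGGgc

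A CCGG site lies at either end of both stretches. In the Zfr stretch the 4 cytosines of the CCGG sites had 65 methylated of 1008 calls over the 10 pools, with levels from 1.81 to 12.8%. The 30 cytosines between them had 62 methylated of 14467 calls, with a median level of 0.384% and a highest level of 2.25%. In the Cdk5r1 stretch the 2 CCGG cytosines had 27 methylated of 607 calls, and the other 62 cytosines had 162 of 20235 calls. At Zfr the 4 end positions thus held more methylated calls than all positions between them.

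The mitochondrial genome shows the same at its most covered CCGG sites, which lie in the coding sequence of mt-Co1, the gene of cytochrome c oxidase subunit 1.
mt-Co1, chrM:6098-6129: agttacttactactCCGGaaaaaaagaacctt
mt-Co1, chrM:6260-6291: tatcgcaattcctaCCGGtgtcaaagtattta
mt-Co1, chrM:6374-6405: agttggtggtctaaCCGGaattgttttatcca
At the first of these the level over all pools was 6.34% on the plus strand (90459 calls) and 3.19% on the minus strand (60405 calls). At the second it was 7.54% (86479 calls) and 6.08% (81026 calls). At the third it was 7.30% on the minus strand (131311 calls) and 25.6% on the less covered plus strand (2110 calls).

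Over all unmethylated promoters, the 16071 cytosines inside CCGG read at 5.59% and the other 197603 cytosines at 0.678%. CCGG held 7.10% of the calls and 38.6% of the methylated calls. The median CCGG cytosine was at 5.23%, with 3.75 and 6.90% at the quartiles, and 0.765% of them had no methylated call. The median cytosine elsewhere was at 0.495%, and 37.9% had no methylated call. Median coverage of a cytosine in a pool was alike, at 30 calls inside CCGG and 32 outside.

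The step was confined to CCGG among the contexts examined. Read on its own strand with 1 base on either side of the CpG, each of the other 15 contexts was between 0.519% (ACGT) and 0.828% (CCGC). CpGs flanked on one side as in CCGG did not share the high level, with CCGC at 0.828%, CCGA at 0.750%, GCGG at 0.662% and ACGG at 0.663%. Cytosines 2 to 3 b from the nearest site were at 0.730%, those 11 to 20 b away at 0.650%, and those 81 to 200 b away at 0.795%.

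**Figure D1:**
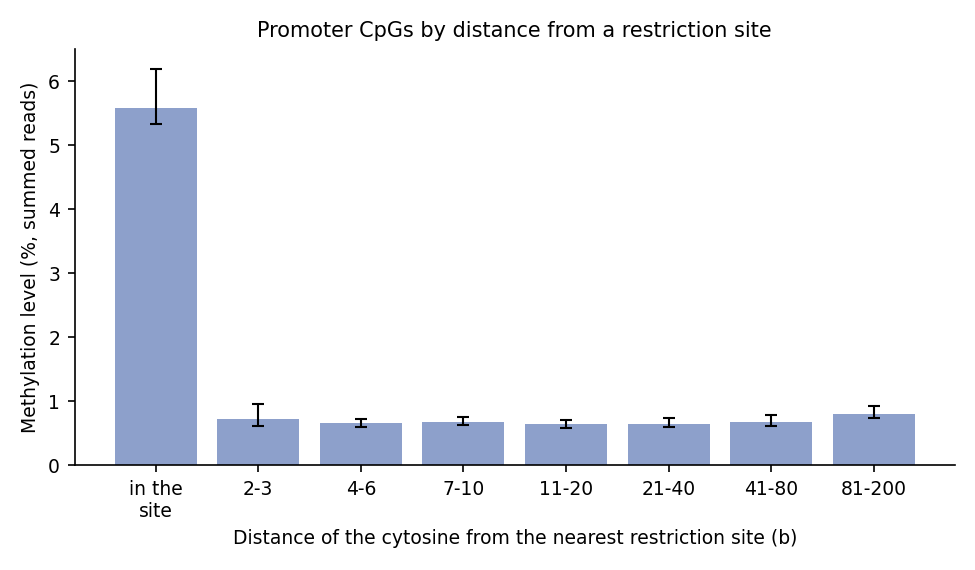
The bars give the methylation level (%, summed calls of the 10 pools) of promoter CpG cytosines by distance from the nearest CCGG site in b, and the lines reach from the lowest to the highest pool. Cytosines in the site stand at 5.59%, and every distance class outside it stays between 0.648 and 0.795%.

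The number of CCGG sites in a promoter went with its level. The 1503 promoters with no CCGG cytosine in the table averaged 0.699% ± 0.0487 (SD, n = 5) in the control pools and 0.743% ± 0.0660 in the arsenic pools. The 4214 promoters with 1 site averaged 0.982% ± 0.0206 and 1.03% ± 0.0653. The 1473 promoters with 3 or more sites averaged 1.14% ± 0.0521 and 1.19% ± 0.0760. Since the rule set its limit on the level, a promoter with many sites was nearer to that limit for this reason alone.

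Mitochondrial DNA gave the background for these values. Of its 158 CpG cytosines in the table, 17 lay in CCGG and held 25.6% of its calls. Their levels ranged from 2.49 to 31.3%, with a median of 3.51%, and they made up 16 of the 16 highest mitochondrial cytosines. The other 141 cytosines had a median of 0.471% and a highest level of 1.71%. Summed over all its calls, mitochondrial DNA read at 1.93% ± 0.102 in the control pools and 2.06% ± 0.122 in the arsenic pools (n = 5 each), which was above the mean level of the unmethylated promoters.

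The question of the comparison was whether small promoter levels were higher in the arsenic pools, and higher than this background. The mean level over the 9861 promoters in control pools 1 to 5 was 0.965, 1.00, 0.984, 1.03 and 0.979%. In arsenic pools 1 to 5 it was 1.04, 0.982, 1.14, 1.04 and 0.989%. Arsenic pools 1, 3 and 4 lay above all control pools and arsenic pools 2 and 5 within their range, so the groups overlapped. The group means were 0.991% ± 0.0236 and 1.04% ± 0.0636, a difference of 0.0470 percentage points, which was larger than the SD of the control pools and smaller than that of the arsenic pools. Without arsenic pool 3 it was 0.0212 points.

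The median promoter stood somewhat further apart. It was between 0.707 and 0.752% in the control pools and between 0.737 and 0.818% in the arsenic pools, with 4 of 5 arsenic pools above all controls. With the calls thinned to the least covered pool, the group means of the median were 0.707% ± 0.0238 and 0.762% ± 0.0330. Promoters without any methylated call made up as much as 23.5% of the set in the control pools and between 10.5 and 17.6% in the arsenic pools, and after thinning as much as 25.4% and between 18.5 and 22.5%. The group means were 19.5 and 14.6% before thinning and 23.3 and 20.3% after it, and the groups overlapped both ways.

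Read apart, CCGG cytosines differed between the groups by more points than the rest, but they held only 7.10% of the calls. With CCGG left out, the mean over the promoters was 0.652% ± 0.0251 in the control and 0.678% ± 0.0534 in the arsenic pools. This left a difference of 0.0259 points, against 0.0470 points with CCGG included. The promoters with no CCGG cytosine differed by 0.0440 points, less than either SD given above. At CCGG cytosines of promoters, control pools 1 to 5 were at 5.35, 5.58, 5.54, 5.39 and 5.34%. Arsenic pools 1 to 5 were at 5.39, 5.78, 6.19, 5.76 and 5.63%. All arsenic pools but the first lay above all controls, and the group means were 5.44% ± 0.115 and 5.75% ± 0.292.

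At all other promoter cytosines the groups overlapped. Control pools 1 to 5 were at 0.642, 0.690, 0.641, 0.731 and 0.650%. Arsenic pools 1 to 5 were at 0.710, 0.618, 0.777, 0.691 and 0.658%. Arsenic pool 3 was the highest and arsenic pool 2 the lowest of the 10, and the difference of 0.0196 points was smaller than either SD (0.0391 and 0.0595).

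The mitochondrial values were read in the same 2 classes. Its CCGG cytosines were at 6.42, 6.61, 6.03, 5.98 and 5.85% in the control pools and at 6.34, 6.98, 6.74, 6.62 and 6.12% in the arsenic pools. The difference was 0.381 points there against 0.307 points in the promoters. Its other cytosines were at 0.481% ± 0.0343 and 0.489% ± 0.0685, a difference of 0.00801 points against 0.0196 points in the promoters. The groups overlapped in both classes.

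In exact two-sided permutation tests over the 252 assignments of the pools (n = 5 each), whose smallest possible p is 0.00794, the mitochondrial groups did not pass the threshold. The exact permutation p was 0.103 for all mitochondrial calls, 0.0952 for CCGG cytosines and 0.817 for the rest, with adjusted values over these 3 tests of 0.155, 0.155 and 0.817. In each of the first 2 measures 4 of 5 arsenic pools lay above the control mean. Without arsenic pool 5 the first exact permutation p was 0.0317, at a difference of 0.179 points. With any other single pool left out, this exact permutation p was between 0.0714 and 0.206. The values with a pool left out are not adjusted.

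**Figure D2:**
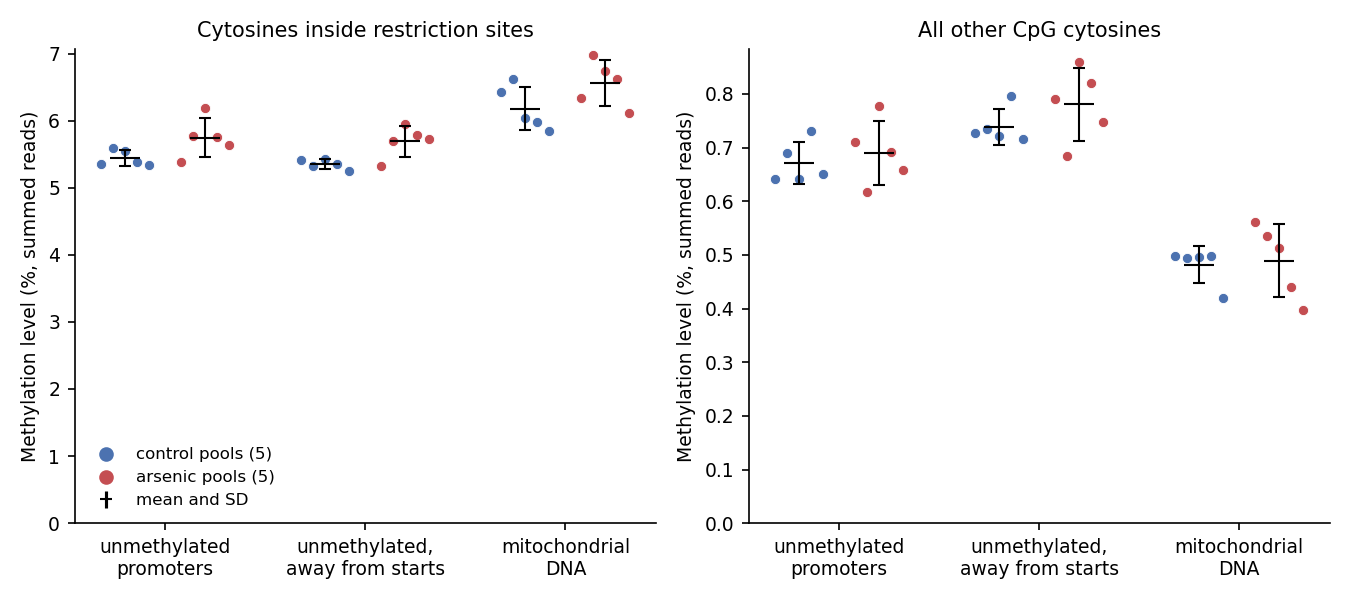
Each point is 1 pool (blue control, red arsenic) with its methylation level in % from summed calls on the y axis, for unmethylated promoters, unmethylated regions away from starts and mitochondrial DNA. Black marks are the mean and SD of 5 pools. At restriction sites (CCGG, left) all sets lie between 5.25 and 6.98%, and elsewhere (right) between 0.396 and 0.860% with overlapping groups.

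Taken above the mitochondrial level of the same pool, the promoters differed between the groups by less than the spread of the pools. With all calls the promoter mean was below the mitochondrial level in each of the 10 pools, by a group mean of -0.934 points ± 0.112 in the control and -1.02 ± 0.124 in the arsenic pools. The difference of -0.0838 points turned to 0.0350 points when each mitochondrial cytosine had the same weight. With CCGG left out on both sides, the promoters were above the mitochondrial level by 0.190 points ± 0.0436 and 0.201 ± 0.0817. The arsenic pools both held the lowest value (0.0822 in pool 2) and the highest (0.263 in pool 3), and the group difference of 0.0116 points was far inside the spread. For CCGG alone the group means were -0.738 ± 0.286 and -0.812 ± 0.297 points. No test was made on these means, since the promoters were chosen by their levels in the same pools.

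Mitochondrial and promoter DNA differ in base composition, copy number and fragment length, and whether both are converted alike was not tested. The groups also differ in depth, and its part in the difference was not tested beyond the thinning given above.

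The same held for unmethylated DNA elsewhere. In the 6705 autosomal regions away from starts with a level of at most 2%, CCGG cytosines were at 5.35% ± 0.0746 in the control and 5.69% ± 0.231 in the arsenic pools, with 4 of 5 arsenic pools above all controls. Their other cytosines were at 0.739% ± 0.0331 and 0.781% ± 0.0679. In the 134 such promoter regions of the X chromosome the other cytosines were at 0.495% ± 0.108 and 0.565% ± 0.121. A difference of like size at CCGG was thus seen away from promoters as well.

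The difference was similar across classes of level and smallest nearest the limit. For the 1781 promoters with a mean level of 0.5 to 0.75%, control pools ranged from 0.589 to 0.632% and arsenic pools from 0.607 to 0.690%, with group means of 0.606% ± 0.0179 and 0.663% ± 0.0338. For the 1451 promoters at 1.5 to 2% the means were 1.71% ± 0.122 and 1.73% ± 0.175. The share of promoters with a higher mean in the arsenic pools was 55.0% in the first class and 49.8% in the second.

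**Figure D3:**
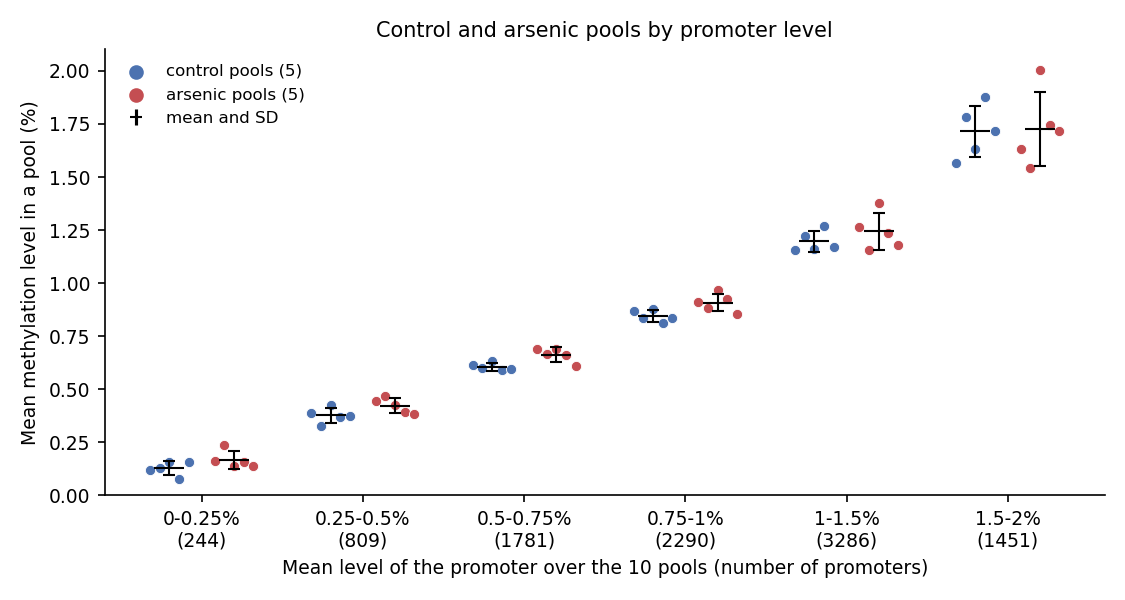
The y axis gives the mean methylation level (%) of a pool over the promoters of each class, and the x axis the classes by mean level over the 10 pools with the number of promoters. Points are pools (blue control, red arsenic) and black marks the mean and SD of 5 pools. The groups lie within 0.0620 points of each other in every class.

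Levels were also nearly flat along the promoter. Outside CCGG, cytosines 0 to 100 b downstream of the start were at 0.630% ± 0.0385 in the control pools and 0.665% ± 0.0669 in the arsenic pools. Those 801 to 1100 b upstream were at 0.723% ± 0.0357 and 0.732% ± 0.0525. Control and arsenic pools overlapped at both places.

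Promoter by promoter, no difference passed the test. Each region was fitted by limma, using its methylated over unmethylated calls on a log2 scale, with a prior count that scales with depth, over all 67791 regions. At a Benjamini-Hochberg adjusted p under 0.05, limma called 0 of 9861 promoters (background 0% of all regions), and the smallest adjusted p of a promoter was 0.567. At an unadjusted p under 0.05, 502 promoters were higher in the arsenic pools (5.09%, background 2.76% of all regions) and 248 were lower (2.51%, background 3.95%). edgeR's quasi-likelihood test on the methylated and unmethylated calls also called 0, with 409 higher (4.15%, background 2.42%) and 278 lower (2.82%, background 3.78%) at an unadjusted p under 0.05.

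The lean toward higher values was shared with other unmethylated DNA. Of the 6705 unmethylated regions away from starts, 382 were higher (5.70%) and 172 lower (2.57%) at the same unadjusted p. Among the 4632 autosomal promoter regions above the 2% limit, 155 were higher (3.35%) and 136 lower (2.94%). In the promoters of the set the higher side made up 66.9% of the 2 sides with the depth-scaled prior, 62.4% after thinning, 59.5% with edgeR and 54.1% with a fixed prior count of 1. It made up 71.2% on the percent scale, 66.2% with a prior averaging 2 and 59.0% in the logistic model. The cause of these changes was not tested.

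**Figure D4:**
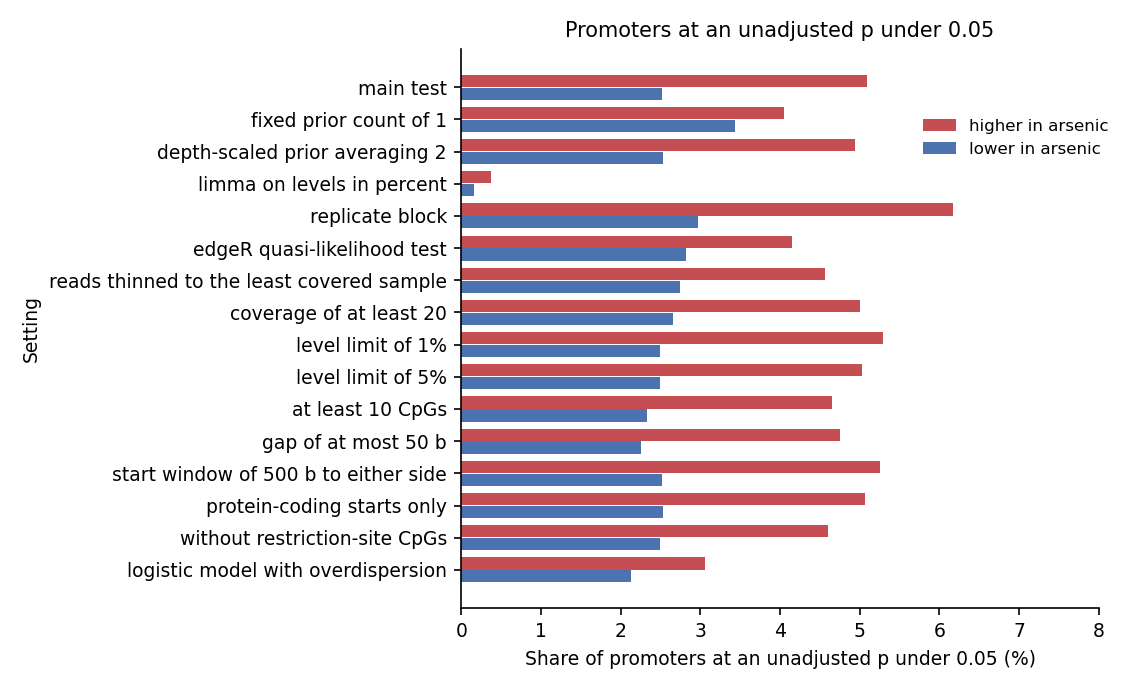
Bars give the share of unmethylated promoters (%, x axis) at an unadjusted p under 0.05 that were higher (red) or lower (blue) in the arsenic pools, for the main test and each alternative setting (y axis). The higher side exceeds the lower one in every setting drawn, with 5.09 against 2.51% in the main test and 4.05 against 3.43% with a fixed prior count.

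By mean level, 5290 promoters were higher in the arsenic pools (53.6%, background 45.8%), 4544 were lower and 27 were equal. The middle of the differences was 0.0463 points, with -0.301 and 0.402 points at the quartiles. Differences above 1 point were seen in 728 promoters upward and 616 downward, and above 2 points in 100 and 93. In 55 promoters all arsenic pools lay above all control pools (0.558%, background 0.395%), and in 25 all lay below (0.254%, background 0.9%). With CCGG left out, 40 promoters were higher without overlap (0.406%, background 0.36%) and 28 lower (0.284%, background 0.915%), and 11 of the 55 and 13 of the 25 were among them.

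A promoter's level in 1 pool said little about its level in another. Across the promoters, Pearson's r between pools was between 0.0108 and 0.0854 over the 45 pairs, a description in which promoters share libraries and narrow limits of level. High values in single pools were rare. Of 98610 promoter values 130 were above 10%, with 76 in control pools and 54 in arsenic pools, and the limit on the mean lets a promoter have such a value in no more than 1 pool.

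The 8 largest differences among the promoters that were higher without overlap are given first. At Ak5, which codes for an adenylate kinase of the brain (chr3:152668169-152668297, within exons, 18 CpGs), the control pools were at 0, 0.490, 0, 0 and 0%. The arsenic pools were at 1.29, 1.18, 13.6, 0.655 and 1.60%. All arsenic values exceeded the control ones, but pool 3 stood far above the rest and set the difference of 3.57 points (log2 ratio difference 3.07, SE 0.717, limma adjusted p 0.742).

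Fgf9 codes for a growth factor needed for testis formation, and its region lies outside annotated exons, with its centre 342 b upstream of the nearest start. It is printed to show how few CpGs the region has. Each of its 8 cytosines of the table had a higher mean in the arsenic than in the control pools.
Fgf9, chr14:58074677-58074869: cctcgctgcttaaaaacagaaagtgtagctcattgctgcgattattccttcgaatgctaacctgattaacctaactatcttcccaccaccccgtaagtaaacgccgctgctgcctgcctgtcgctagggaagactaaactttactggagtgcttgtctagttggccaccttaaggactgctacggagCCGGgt
The control pools were at 0, 0, 0, 0.847 and 0.694%, and the arsenic pools at 1.14, 4.43, 8.60, 1.33 and 1.13%. Arsenic pools 2 and 3 were high, and the other 3 were just above the controls. Without the CCGG cytosine, arsenic pools 1, 4 and 5 were at 0%, below control pools 4 and 5. The 178 calls at the CCGG cytosine held 9 of the 24 methylated calls of the region.

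At Grid2ip, whose product binds a glutamate receptor of the cerebellum, values were even between the arsenic pools.
Grid2ip, chr5:143369946-143370048: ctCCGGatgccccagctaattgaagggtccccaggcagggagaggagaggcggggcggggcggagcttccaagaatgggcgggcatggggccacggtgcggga
The control pools were at 0, 0, 0, 0 and 1.63%, and the arsenic pools at 1.82, 2.43, 1.77, 2.55 and 3.89%. No arsenic pool stood apart, and the groups also did not overlap without the CCGG cytosine, at 0% in all control pools against 0.893 to 2.94%. The difference was 2.17 points (log2 ratio difference 2.15, SE 0.426, limma adjusted p 0.742), from 79 to 364 calls per pool.

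The other 5 were Xkr6, Napb, Clta, Cd47 and Gm20388. At Xkr6, a member of the XK-related membrane proteins, the control pools were between 0.219 and 0.764% and the arsenic pools at 4.00, 1.09, 6.26, 5.17 and 1.13%. At Napb, which codes for a SNAP protein of vesicle fusion, they were between 0.286 and 0.769% and at 6.32, 0.974, 1.18, 2.06 and 5.07%. Different arsenic pools were thus high at different promoters.

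Clta codes for a clathrin light chain. Its control pools were between 0 and 0.664% and its arsenic pools at 0.957 to 1.88% in pools 1 to 4 and 8.87% in pool 5, which alone was high. At Cd47, which codes for a surface protein that restrains phagocytosis, arsenic pools 4 and 5 were at 3.75 and 7.47%, and the other 3 were between 0.327 and 0.430% against control pools of at most 0.281%. The Gm20388 region also holds the start of Usp10, a ubiquitin protease gene, and was at 0.232 to 0.581% in the control and 0.748 to 5.74% in the arsenic pools.

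In 7 of these 8 promoters at least 1 arsenic pool was above 5%. The highest value was in arsenic pool 3 at 4 of them, in pool 5 at 3 and in pool 1 at 1. Without CCGG, Cd47 and Grid2ip still did not overlap between the groups and the other 6 did.

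Among the 4 largest differences in the other direction, Bloc1s5, Zfp853 and Hs3st3a1 had 1 control pool far above the rest. At Bloc1s5, whose product serves in lysosome-related organelles (chr13:38635023-38635257, within exons), the control pools were at 1.69, 1.07, 9.61, 0.201 and 0.909% and the arsenic pools at 0.0774, 0, 0, 0 and 0%. All control pools were higher, and pool 3 set the size of the difference of -2.68 points. Zfp958, a zinc finger gene, was at 3.03, 3.03, 1.78, 2.02 and 5.94% in the control and 0 to 0.898% in the arsenic pools. Zfp853, another, had 8.19% in control pool 3 with the other control pools at most 2.04%, and 0 to 0.787% in the arsenic pools.

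Hs3st3a1 codes for a heparan sulfate sulfotransferase, and its region lies outside exons, centred 289 b upstream of the start.
Hs3st3a1, chr11:64434951-64435135: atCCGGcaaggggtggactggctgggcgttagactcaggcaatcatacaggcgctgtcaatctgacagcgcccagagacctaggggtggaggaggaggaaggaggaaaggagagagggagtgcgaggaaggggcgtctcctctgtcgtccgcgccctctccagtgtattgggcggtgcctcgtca
It was at 9.04, 0.816, 0.781, 0.543 and 1.21% in the control pools and at 0, 0.278, 0, 0 and 0% in the arsenic pools. Control pool 1 alone was high, and the others lay close to the arsenic pools. All 4 of these promoters had a control pool above 5%. Without CCGG, Zfp958 and Bloc1s5, which had no CCGG cytosine in the table, still did not overlap between the groups. Zfp853 and Hs3st3a1 did overlap.

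The smallest limma p-values belonged to promoters with even and very low values. Zfp664, a zinc finger gene, was at 0.402, 1.58, 1.06, 0.355 and 0.749% in the control pools and at 0% in each arsenic pool (unadjusted p 3.65e-05, limma adjusted p 0.567). Hsp90aa1, which codes for the inducible form of the chaperone HSP90, was at 0, 0, 0.621, 0 and 0% in the control and 1.40, 1.02, 1.72, 1.89 and 1.72% in the arsenic pools. The groups did not overlap at either promoter, and neither had a CCGG cytosine in the table.
Hsp90aa1, chr12:110696699-110696806: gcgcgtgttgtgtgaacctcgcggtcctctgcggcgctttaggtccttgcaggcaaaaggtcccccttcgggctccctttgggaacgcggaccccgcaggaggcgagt
The Hsp90aa1 stretch lies outside exons, centred 358 b upstream of the start, and had 25 methylated of 2837 calls in all. Its log2 ratio difference was 2.14 (SE 0.323, limma adjusted p 0.567). No single cytosine of it was above 2.34% over the 10 pools.

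Plekha7 codes for a protein of adherens junctions. It was at 0 to 0.291% in the control and 0.514 to 1.85% in the arsenic pools (limma adjusted p 0.567). Without its CCGG cytosines it was at 0% in all control pools and in 4 arsenic pools. Abcf1, which codes for a translation factor of the ABC family, was at 0% in all control pools and at 0.208, 0.347, 0.943, 0.431 and 0.433% in the arsenic pools, with an adjusted limma p of 0.742. Each of these arsenic values stood for 2 methylated calls, out of 212 to 963 calls in a pool.

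Zfp639, a zinc finger gene, was included because earlier results of these data had named it. Its region (chr3:32510266-32510399, within exons, 7 CpGs) was at 0.362, 0, 0.172, 0 and 0.355% in the control and 1.29, 2.30, 1.56, 0.846 and 3.22% in the arsenic pools. All arsenic pools were higher, with a log2 ratio difference of 2.56 (SE 0.435, limma adjusted p 0.742). Without its CCGG site the groups overlapped, at up to 0.423% in the control and from 0.296% in the arsenic pools.

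**Figure D5:**
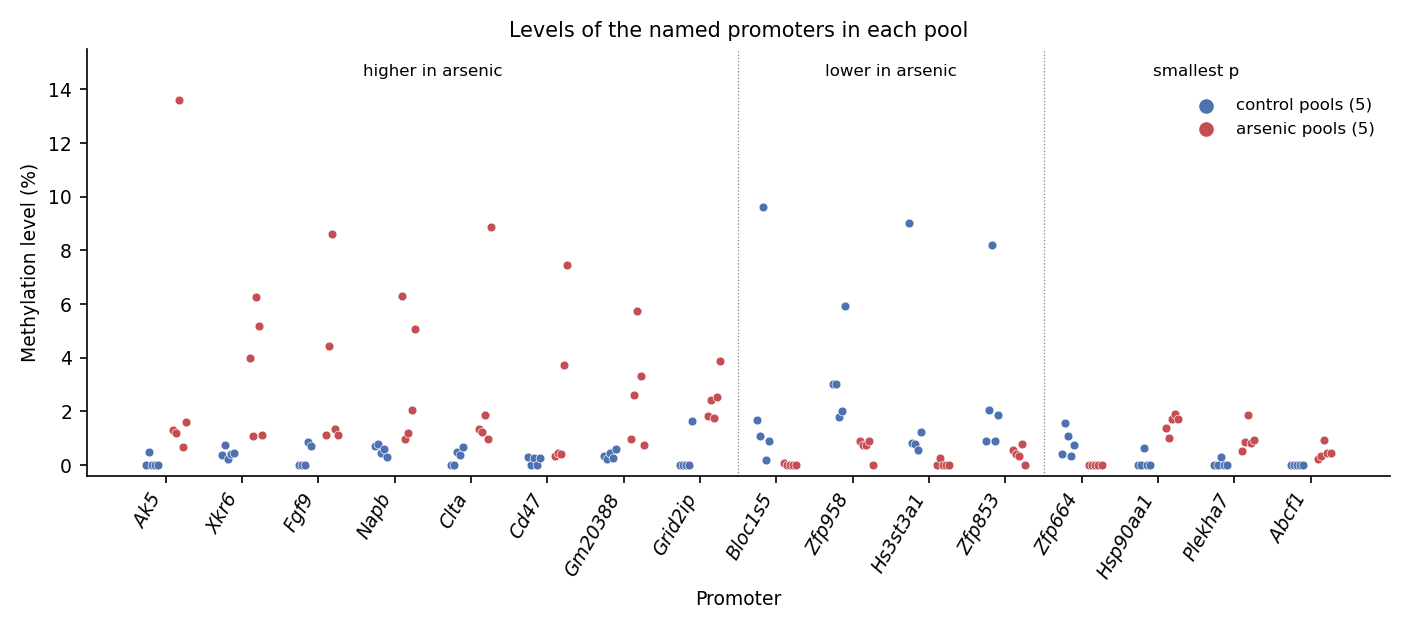
Methylation level (%, y axis) of the 16 promoters named by rule (x axis), with 1 point per pool, blue for control and red for arsenic. Most of the largest differences have 1 or a few pools far above the others, such as Ak5 at 13.6% in arsenic pool 3 and Bloc1s5 at 9.61% in control pool 3, whereas the promoters with the smallest p stay below 2%.

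A few promoters were called in other settings. Lasp1, which codes for an actin-binding protein (chr11:97799441-97799536), was at 0% in all control pools and at 1.24, 1.08, 1.11, 1.53 and 1.35% in the arsenic pools when only cytosines with at least 20 calls were used (limma adjusted p 0.00850). Another Lasp1 region of the set, with 5 cytosines, was at 12.7% in control pool 3 (79 calls) and at 0% in every other pool. Without control pool 2, limma called Dlg1, a scaffold protein gene, with an adjusted p of 0.0173, and Uso1, a gene of Golgi vesicle tethering, with 0.0293. At Dlg1 control pool 2 was at 1.98% and the other 4 at 0%, against 1.48 to 2.71% in the arsenic pools. Among regions of any kind, limma called 3 with at least 20 calls and 3 without control pool 2. Lasp1, Dlg1 and Uso1 were named after their values were seen.

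At the lowest end, 26 promoters had no methylated call in any pool. The 3 with the most CpGs were Zfp383, Gm6658 and Gga3, with 12, 9 and 8 CpGs, and none held a CCGG cytosine. Zfp383 had 142 to 335 calls per pool and 2287 in all, so that a count of 0 allows a level of up to 0.131%. The region of Donson, a DNA replication gene, had 0 of 1579 calls methylated. The part of it outside exons is shown, whose 7 CpGs of the table held 1381 of these calls.
Donson, chr16:91688822-91688872: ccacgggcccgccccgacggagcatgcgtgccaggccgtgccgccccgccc

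Just inside the limit lay Ctps, Gm45846 and Gm12446 with mean levels of 2.00% each, and just outside it Sp9, 2510009E07Rik and Gatd1, also at 2.00%. Ctps, which codes for CTP synthase, was between 0 and 2.60% in the control and between 0 and 7.22% in the arsenic pools. At Gatd1 the 5 control pools were between 0 and 4.76%, and all were at 0% without the CCGG sites.

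Gene groups of constitutive promoters were described by counts, with 0 members called by limma at an adjusted p under 0.05 in each of the 12 lists. Of 60 regions of cytosolic ribosomal proteins, which build the ribosome, 30 had a higher mean in the arsenic pools, 4 were higher and 0 lower at an unadjusted p under 0.05, and the median difference was -0.000416 points. Over the whole set 5.09% were higher and 2.51% lower at that p, and over all regions 2.76 and 3.95%. Lists for which no such counts are given had at most 1 region on either side. Of 43 of mitochondrial ribosomal proteins 24 were higher, and the median was 0.0736. Of 46 of translation factors 30 were higher, with a median of 0.0893 points. Over all promoters of the set 53.6% were higher and the median was 0.0463.

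Of 58 regions of nuclear genes of the respiratory chain and ATP synthase, 26 were higher (median -0.109), with 2 higher and 0 lower at an unadjusted p under 0.05. Of 20 of proteasome subunits 10 were higher (median 0.00342), and of 55 of chaperones 31 (median 0.0512), of which 4 were higher and 2 lower at that p. Of 202 of zinc finger genes 109 were higher (median 0.0525), with 8 higher and 9 lower at an unadjusted p under 0.05.

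Lists of genome maintenance and stress had medians between -0.118 and 0.00691 points. Of 26 regions of DNA repair and tumour suppressor genes 13 were higher (median 0.00691), of 70 of cell cycle regulators 30 (median -0.0454), of 18 of oxidative stress and metal response genes 9 (median -0.00830), and of 15 of the DNA methylation machinery 7 (median -0.118). In the oxidative stress and metal response list, Gclm had the largest difference upward and Srxn1 the largest downward. Gclm, which codes for a subunit of the enzyme that makes the precursor of glutathione, had 9.47% in arsenic pool 2 and at most 0.855% elsewhere. Srxn1 had 6.69% in control pool 3 and at most 3.00% elsewhere.

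Developmental transcription factors are as a rule bare and silent in germ cells. With CCGG included, they had the median furthest above 0 of the 12 lists. Of their 109 regions 68 were higher in the arsenic pools (median 0.188 points), and without CCGG 63 were (median 0.0582). Without CCGG the medians of mitochondrial ribosomal proteins (0.150 points) and translation factors (0.149 points) were further above 0. The mean level was 0.992, 1.19, 0.975, 1.09 and 1.18% in the control pools and 1.12, 1.08, 1.28, 1.44 and 1.12% in the arsenic pools, so that 3 arsenic pools lay within the range of the controls. At an unadjusted p under 0.05, 3 were higher and 4 lower, beside 2.76 and 3.95% of all regions. Sox12 had the largest difference upward, with 13.8% in arsenic pool 4 and at most 0.883% elsewhere, and Nkx2-9 the largest downward, with 13.2% in control pool 5 and at most 1.61% elsewhere.

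In several other lists an extreme member had 1 high pool. E2f1, a cell cycle transcription factor gene, had 11.9% in arsenic pool 1, and E2f8 had 11.1% in control pool 2. Eif4g1, a translation initiation scaffold gene, had 12.7% in control pool 2, Hspa4l, a chaperone gene, 11.4% in arsenic pool 1, and Rpl31, a ribosomal protein gene, 7.60% in arsenic pool 3. In each of these 5 the other pools were at most 3.47%. Other extremes did not rest on 1 pool, such as Zfp28, a zinc finger gene, at 0 to 1.33% in the control and 3.11, 3.87, 4.42, 0.787 and 2.82% in the arsenic pools. Without its CCGG sites, however, Zfp28 was at 0.260% ± 0.581 in the control and 0.285% ± 0.390 in the arsenic pools. Rpsa, a ribosomal protein gene, was at 3.88 and 4.68% in control pools 1 and 5 and at most 1.52% in the other pools.

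What the promoters share beyond their level is CpG density. Their median G+C content was 63.8% and the median observed to expected CpG ratio 0.872. In the 2317 autosomal promoter regions above 20% these were 53.9% and 0.613, and in the 2315 between 2 and 20% they were 57.4% and 0.659. The unmethylated regions away from starts were close to the set, at 63.2% and 0.829. Regions that overlapped starts of more than 1 gene made up 19.3% of the set and 7.02% of the other autosomal promoter regions.

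Of 8010 lead gene symbols, 5761 were found among the 25748 autosomal RefSeq promoters of GRCm38 (250 b before to 50 b after the start). On either strand, GGGCGG, the letters bound by SP and KLF factors, was in 69.3% of them against 36.3% of all promoters and 49.0% of those of genes with only a region above the limit. CCGGAAG, an ETS motif that overlaps CCGG, was in 19.1% against 9.29% of all. TATAAA was in 5.95% against 14.2%, and CCAAT in 38.4% against 37.8%. CATGCGC, an NRF1 motif, was in 7.36% against 4.04%, TGACGTCA, a CREB and ATF motif, in 3.28% against 1.92%, and AAGATGG, a YY1 motif, in 6.60% against 6.51%. CCGG itself was in 91.4% against 53.4% of all and 80.6% of those of genes with only a region above the limit, and the promoters of the set held a median of 23 CpGs against 7 over all. In those other covered promoters CCGGAAG was in 13.3%, TATAAA in 9.50% and CATGCGC in 4.72%. RRBS covers only regions near such sites, so the set is not all unmethylated promoters of the genome.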

How the data were processed

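RRBS libraries of 10 prospermatogonia pools were analysed. According to the methods and processing notes, the authors trimmed reads with Trim Galore 0.6.5, mapped them to mm10 with Bismark 0.22.3 and took the level of each CpG from methylKit 1.22.0, and the table keeps the strands apart. The handling of duplicates and overlapping mates is not given in the sources used here. The deposited table holds raw counts of reads, methylated and unmethylated, for cytosines with a count of at least 10 in every pool. Groups came from the titles. Members and lists were chosen with earlier results of these data known. Differences were tested by limma 3.58.1 (R 4.3.3) on log2((methylated + prior)/(unmethylated + prior)), with a prior averaging 1 that scales with depth, adjusted by Benjamini-Hochberg over all regions and checked on simulated data. edgeR 4.0.16, a logistic model with overdispersion, exact permutation tests (scipy 1.17.1), thinning and other definitions were alternatives. Promoters were named by rule: the 8 largest positive and 4 largest negative differences without overlap, the 4 smallest p, the 3 longest bare ones, neighbours of the limit, and the extremes of each list.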

Additional observations from a re-analysis of the deposited data

Results flagged for a closer look

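In groups of 5 pools, the highest or lowest value was set apart from the others by the gap to its neighbour relative to the group's range (Dixon's 95% limit). Chance sets apart about 1 in 20 groups when the groups are not chosen by their values. Here 54 groups were examined and 13 were set apart. Most of the 13 belong to promoters named for their differences in these same pools, so that rate does not hold for them.

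Outside CCGG, mitochondrial DNA of control pool 5 was low at 0.420%, with the other control pools close together. At Ak5, control pool 2 was apart at 0.490% and arsenic pool 3 at 13.6%. Arsenic pool 5 was apart at Clta with 8.87%, and control pool 5 at Grid2ip with 1.63%. At Bloc1s5, control pool 3 was apart at 9.61% and arsenic pool 1 at 0.0774%. At Hs3st3a1, control pool 1 was apart at 9.04% and arsenic pool 2 at 0.278%. Control pool 3 was apart at Zfp853 with 8.19%, at Hsp90aa1 with 0.621% and at Plekha7 with 0.291%. Arsenic pool 5 was apart at Zfp958 with 0%. In several of these groups the other pools were all at 0%, where any methylated call sets a pool apart.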

How the results depend on the processing

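Promoters called by limma at an adjusted p under 0.05 numbered 1 with at least 20 calls per cytosine and 0 to 2 with 1 pool left out, the 2 without control pool 2. Among regions of any kind, 3 of 34210 were called with at least 20 calls and 3 of 67791 without control pool 2. At an unadjusted p under 0.05, the 502 higher promoters became 37 on the percent scale, 279 with at least 20 calls, 271 under a 1% limit and 302 in the logistic model, and the 248 lower ones became 15, 148 and 128 in the first 3 of these. On the percent scale 0.375% of the set were higher and 0.152% lower, against 1.95 and 5.27% of all regions. In the logistic model the shares were 3.06 and 2.13%, against 2.24 and 5.02% of all regions. Leaving out 1 pool gave 467 to 545 higher and 242 to 283 lower, while 2.19 to 4.40% of all regions were higher and 2.99 to 4.68% lower. The difference in mean level, 0.0470 points, was 0.307 at CCGG cytosines alone (summed calls) and 0.0259 with CCGG left out. With 1 pool left out it was 0.0212 (without arsenic pool 3) to 0.0610. Above mitochondrial DNA it was -0.0838 points, 0.0350 with the unweighted mitochondrial mean, and -0.123 to -0.0373 with 1 pool left out, the last without arsenic pool 2. The mitochondrial difference was 0.0983 to 0.179 points with 1 pool left out, the last without arsenic pool 5. Promoters with a higher mean numbered 2939 with at least 20 calls, 2823 under a 1% limit and 5062 to 5423 with 1 pool left out. Promoters without overlap, 55 higher and 25 lower, became 32 and 13 after thinning, 35 and 10 with at least 20 calls, 21 and 13 under a 1% limit, and 90 to 110 and 42 to 65 with 1 pool left out, where fewer pools must separate. At least 20 calls left 5571 promoters and the 1% limit 5124 of 9861, and 5.01 and 5.29% of these were higher at an unadjusted p under 0.05 against 5.09%, so these counts fell with the number of promoters. The cause of the changes on the percent scale, in the logistic model and after thinning was not tested.

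Across the promoters, deviations of same-numbered pools correlated at -0.0367 to 0.0723, and only the pools numbered 5 matched best with their own number. With the replicate number as a block limma called 0 promoters. At an unadjusted p under 0.05, 608 were then higher and 293 lower (6.17 and 2.97%, against 3.03 and 3.12% of all regions). For all mitochondrial calls, the difference of 0.131 points had an exact permutation p of 0.0625 with exchanges within replicate numbers only. This is the smallest p that 5 pairs allow, and it is not adjusted. The splits inside and outside CCGG and the prior averaging 2 were chosen after seeing the data. At the median of 633 calls, 6 methylated calls had an interval of 0.435 to 2.05%, so differences well inside it could not be seen in a single promoter and pool.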
